A study of Mus musculus with 22 samples.

Results

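The levels of microRNAs (miRNAs) in the serum of unirradiated mice were compared with those in the small intestine of unirradiated mice, on 6 of the 22 arrays of a study that took feces, serum and small intestine from males 8 weeks old after X-rays of 10 Gy or 0 Gy. The arrays were taken by their labels: 2 arrays of serum at 0 Gy and 4 arrays of small intestine at 0 Gy, with no array chosen by its values. Serum came from blood taken from the heart into separator tubes and centrifuged. The intestine samples were stored frozen, and the labels name neither the segment nor a cell fraction. Nothing in the labels names a strain, says what was done to the 0 Gy mice in place of X-rays, or links a sample to a mouse of its own. The p-values therefore reflect only how samples vary from array to array, and some of that variation may be technical. Those of the limma fit below take the spread from all 22 arrays, feces and irradiated samples included. Every array carried the Cy3-labelled RNA of a single sample. The serum arrays lay on 1 slide and the intestine arrays on another, so slide and sample type cannot be told apart in any comparison here.

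miRNAs are short RNAs that an Argonaute protein carries to messenger RNAs, mostly through pairing of the seed at bases 2 to 8 of the miRNA, which lowers the output of those messages. Each hairpin precursor can give 2 mature miRNAs, one from its 5p arm and one from its 3p arm, and usually one of them is kept while the other is degraded. In tissue, miRNAs sit inside cells and their mix follows the cell types present. In serum they are held outside cells by proteins, lipoproteins and vesicles, and blood cells, vessel walls and organs such as the liver are known sources of them.

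The mature sequences of the miRNAs on which the results turn are printed as RefSeq gives them with build GRCm38.p6, 5′ to 3′, with the seed in capitals. RefSeq held a sequence for 299 of the 347 miRNAs tested below. The first set was detected on all 4 intestine arrays and on neither serum array. miR-192-5p and miR-215-5p share a seed, as do miR-200b-3p and miR-200c-3p, and as do let-7a-5p, let-7c-5p and let-7d-5p.
miR-192-5p: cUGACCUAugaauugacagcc
miR-215-5p: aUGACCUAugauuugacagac
miR-194-5p: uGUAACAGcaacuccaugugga
miR-200b-3p: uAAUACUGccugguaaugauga
miR-200c-3p: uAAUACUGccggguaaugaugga
let-7a-5p: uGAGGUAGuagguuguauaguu
let-7c-5p: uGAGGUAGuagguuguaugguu
let-7d-5p: aGAGGUAGuagguugcauaguu
miR-21a-5p: uAGCUUAUcagacugauguuga

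The second set was higher in serum. Its first 5 members are shown for their share of G and C and its last 3 for a run of bases they have in common, both described further on. let-7d-3p is shown as the other arm of the hairpin of let-7d-5p.
miR-2137: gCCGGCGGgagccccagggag
miR-5131: cGGCGCCCcacggagccccgagc
miR-3077-5p: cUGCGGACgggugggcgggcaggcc
miR-7045-5p: aGCGGGUGggggagggggacu
miR-3067-3p: cCAAGCGGcugcccugggagagg
let-7d-3p: cUAUACGAccugcugccuuucu
miR-3473f: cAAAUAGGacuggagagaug
miR-5128: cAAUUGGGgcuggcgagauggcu
miR-3473e: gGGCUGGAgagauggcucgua

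The third set holds a pair with the same seed that went in opposite directions, and the red cell miRNA miR-451a.
miR-222-3p: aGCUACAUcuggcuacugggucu
miR-221-3p: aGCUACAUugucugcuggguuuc
miR-451a: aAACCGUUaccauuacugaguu

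Fewer miRNAs were detected in serum. Of 1881 mouse miRNAs on the array, 219 and 175 were detected on the serum arrays, against 298, 295, 285 and 300 on the intestine arrays (197 ± 31.1 in serum, n = 2, against 294.5 ± 6.66 in intestine, n = 4, SD; exact two-sided permutation p = 0.0667, the smallest that 15 orderings allow). A miRNA counted as detected on an array if 1 or more of its probes stood well above background in no less than 50% of their spots. The summed intensity of the detected miRNAs was 98273 and 45171 on the serum arrays and 295063 to 340061 on the intestine arrays. The control RNAs added to every sample were also dimmer in serum. The 2 controls added before labelling averaged 597 and 155 in serum against 1917 and 695 in intestine, and the 2 added at hybridisation averaged 4920 and 411 in serum against 9242 and 4412 in intestine. Between the serum arrays, the labelling controls ran against the summed signal, at 573 and 89 on array 1 and 621 and 220 on array 2. The hybridisation controls were split, at 4739 and 495 on array 1 and 5101 and 326 on array 2. Feature Extraction marked the labelling measure of serum array 1 as out of range and that of the other 5 arrays as in range. Negative control spots averaged 2.75 in serum and 2.91 in intestine, and no spot was saturated. Over the tested miRNAs the serum arrays correlated with each other at r = 0.985 and the intestine arrays at 0.970 to 0.993. A serum and an intestine array correlated at 0.036 to 0.120. These are correlations of log2 levels, with low values set to the floor given below. Many tested miRNAs were detected in only 1 sample type. Shared floor values can raise r within a sample type, and keeping such miRNAs can lower r between the types. How much of the contrast in r comes from this was not tested.

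Levels are given from here on as scaled intensities: the background-subtracted intensity summed over a miRNA's probes, divided by a scale of each array, the 75th percentile of the 81 miRNAs that every one of the 22 arrays detected. A level of 1 thus equals that percentile, and values below the floor of 0.0117 were set to it before taking log2. Differences are log2, serum minus intestine, with the standard error (SE), from a limma fit of all 22 arrays, and a difference passed the test at a Benjamini-Hochberg adjusted p below 0.05 over all 347 miRNAs detected on at least 2 of the 6 arrays. Where a miRNA was detected in only 1 of the groups, its fold is given as a lower bound ("at least"), because the other group's level is only known to lie near background. The bound sets the bright group's mean against, on each dim array, the higher of the dim probe's own signal and the lowest signal well above background, and the smallest value over a miRNA's probes is printed. It allows for background only, and not for the choice of scaling.

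Serum and small intestine differed in most of the miRNAs measured. Of the 347 tested, 305 passed (87.9%): 100 were higher in serum (28.8%) and 205 were lower (59.1%). The 2 serum values and the 4 intestine values did not overlap for 317 miRNAs (91.4%). The median difference over all tested was -1.70, or -1.02 with every miRNA detected in only 1 group set to its bound. Much of the difference was one of detection. Of the tested miRNAs, 41.5% were detected on all 4 intestine arrays and neither serum array, and all but 1 of these passed as lower. Another 43 (12.4%) were detected on both serum arrays and no intestine array, and 42 of these passed as higher. The direction in these 2 sets, and mostly the call, follows from detection in 1 group only, so the counts are no separate result. The same holds for members of these sets in the lists, seeds and hairpins described below. Among the 114 detected on all 6 arrays, 47 were higher in serum (41.2%), 37 were lower (32.5%) and the median difference was 0.29. In those 114, the median absolute difference between the sample types was 1.46, against a median SD between arrays of 0.17 in serum and 0.26 in intestine. The balance of higher and lower depended on the scaling. Of the miRNAs that passed, 32.8% were higher in serum. With the labelling controls as the scale this share was 46.4%, with a median difference of -0.41 over all tested. With the hybridisation controls it was 47.8%, with a median of -0.23, and with quantile normalization it was 44.0%, with a median of -0.69. With normexp, another background correction that adds an offset of 50 to the intensities, it was 19.4%, with a median of -0.42. This offset shrinks differences between weak signals. For a weak miRNA, a call lost with normexp therefore cannot decide whether the difference is real. For miRNAs measured on all 6 arrays the scalings by control RNAs moved differences further than the median, as for miR-30a-5p from -0.03 to 1.88 and 2.06. A difference near the size of such shifts has no settled direction, and a bound of that size is not settled either. The difference of miR-92a-3p, -1.72, turned to 0.18 and 0.37 with these scalings.

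**Figure D1:**
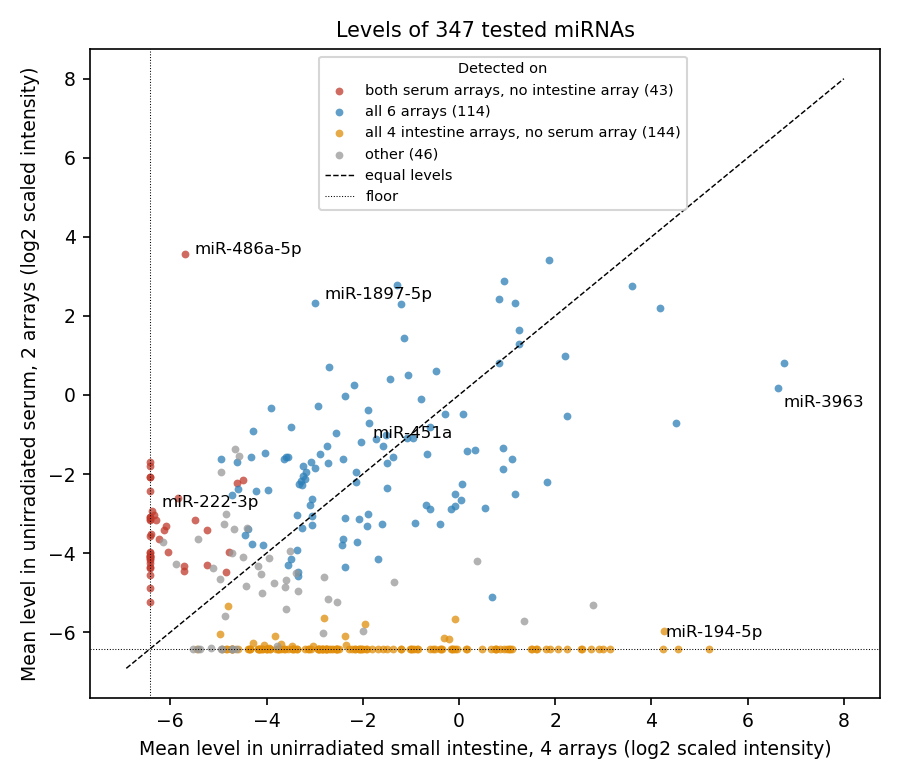
Mean level of each of the 347 tested miRNAs in serum (vertical axis, 2 arrays) against small intestine (horizontal axis, 4 arrays), in log2 scaled intensity. Points on the lower dotted line are the miRNAs at the floor in serum, most of them detected in intestine only, and miR-486a-5p stands farthest above the dashed line of equal levels.

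The largest excess in serum was that of a red cell miRNA. miR-486a-5p, which is abundant in red cells and in muscle, had scaled intensities of 11.3 and 12.3 on the serum arrays, against 0.0177, 0.0194, 0.0157 and 0.0253 on the intestine arrays. Its values were far apart and it was not well above background on any intestine array: it was at least 227-fold higher in serum (adjusted p = 1.53e-18 in limma). The array has no separate entry for the 5p arm of miR-486b, so any signal from it cannot be told apart from that of miR-486a-5p.

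The other members of the red cell list did not follow it. miR-451a, which is made without Dicer and is the most abundant miRNA of red cells, had 0.487 and 0.398 in serum against 0.203, 0.180, 0.255 and 0.374 in intestine. Both serum values lay above all 4 intestine values, but the difference of 0.86 (SE 0.53) did not pass (adjusted p = 0.135). It passed under 6 alternative settings, among them both scalings by control RNAs. miR-16-5p, abundant in red cells and in most other cells, was at the floor on both serum arrays and had 1.65, 1.85, 2.14 and 2.68 in intestine, at least 22.4-fold lower in serum (adjusted p = 3.89e-16). miR-144-3p and miR-144-5p, which are transcribed together with miR-451a, and the 3p arms of miR-486a and miR-486b were detected on none of the 6 arrays. Of the 7 members, 3 were thus tested, with 1 higher, 1 lower and 1 that did not pass. The summed level of the list was 11.8 and 12.7 in serum against 1.87 to 3.09 in intestine, almost all of it in serum from miR-486a-5p.

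**Figure D2:**
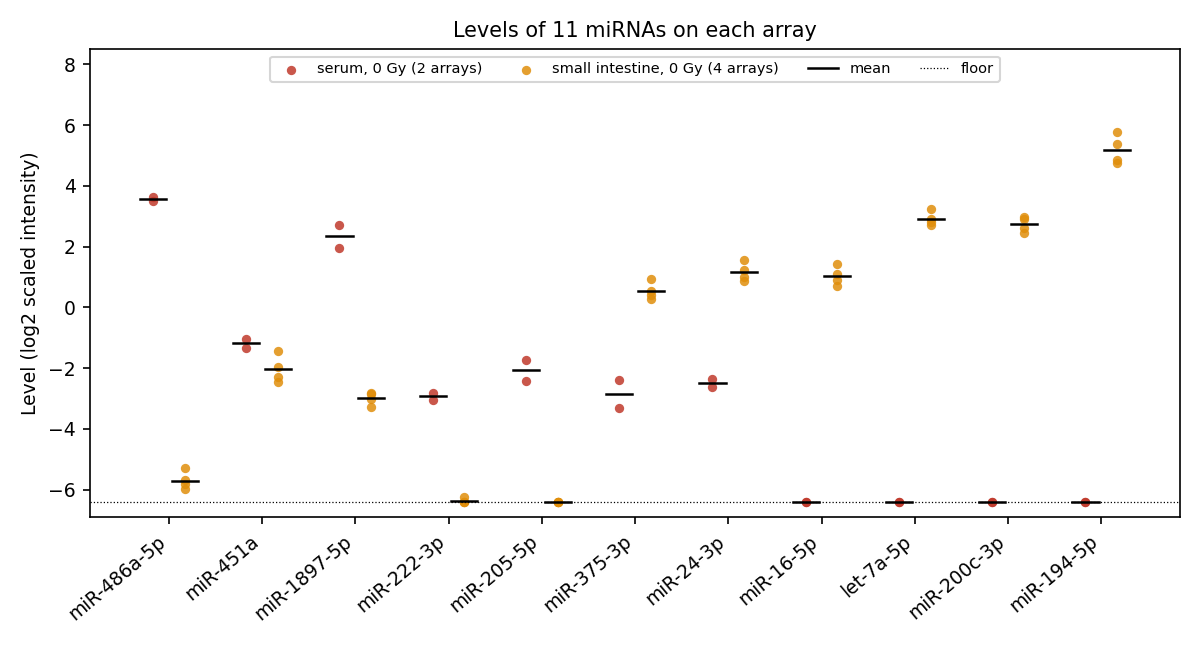
Level of 11 miRNAs on each array (log2 scaled intensity, bars at the means, dotted line at the floor of 0.0117), serum left of small intestine for each miRNA. miR-486a-5p, miR-1897-5p, miR-222-3p and miR-205-5p are higher on both serum arrays than on any intestine array, and miR-16-5p, let-7a-5p, miR-200c-3p and miR-194-5p lie at the floor on both serum arrays.

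A second group of miRNAs was brighter in serum and also measured on every intestine array. miR-1897-5p had 3.90 and 6.56 in serum, against 0.123, 0.104, 0.137 and 0.142 in intestine, a difference of 5.33 (SE 0.31, 40.3-fold, adjusted p = 9.28e-14). miR-3473f followed, with 8.05 and 5.89 in serum against 0.322, 0.297, 0.507 and 0.568 in intestine (4.08, SE 0.40). The next in size were miR-7045-5p with a difference of 3.58, miR-5128 with 3.51, miR-2137 with 3.42, miR-5113 with 3.37 and miR-3077-5p with 3.33. Of these, miR-2137 varied most between the serum arrays, which gave 1.06 and 2.57 against 0.150 to 0.159 in intestine. miR-6978-5p, miR-6995-5p and miR-3473e closed the set of the 10 largest, with differences of 2.92, 2.74 and 2.69. These entries are named by number, and no tissue is given for them here.

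miR-3473f, miR-5128 and miR-3473e, whose sequences are printed above, hold the run CUGGNGAGAUG, where N is any base. It was chosen after their values were seen and was looked for on the given strand only. It occurs in 4 of the 1679 mature sequences of the RefSeq table (0.238%), and all 4 of these miRNAs were tested. The fourth, miR-3473b, was bright in both sample types and lower in serum, at 6.05 and 7.69 against 17.4, 9.81, 15.4 and 7.94 in intestine (difference -0.82, SE 0.38, adjusted p = 0.0486). Its direction was not settled: the difference was 1.28 with quantile normalization, where it passed, and 1.09 and 1.27 with the scalings by control RNAs. It also lost its call under most other alternatives.

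Among miRNAs seen in serum only, the largest bound after miR-486a-5p was that of miR-8093, with 0.289 and 0.327 in serum and the floor on every intestine array, at least 6.76-fold higher. miR-882 was at least 5.99-fold higher in serum, miR-3067-3p at least 5.83-fold, miR-328-3p at least 3.82-fold and miR-5131 at least 3.70-fold. All of these passed the test, yet with normexp the differences of miR-882, miR-328-3p and miR-5131 were between 0.12 and 0.21 and did not pass. miR-205-5p, known from skin and other stratified epithelia, had 0.304 and 0.185 in serum and the floor on all 4 intestine arrays, at least 4.39-fold higher. miR-208a-5p, an arm of the hairpin in the intron of the heart myosin gene Myh6, had 0.334 and 0.169 in serum and was also at the floor in intestine, at least 4.20-fold higher. The other arm of that hairpin, miR-208a-3p, which is the one known from heart muscle, was detected on none of the 6 arrays.

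miR-221-3p and miR-222-3p come from neighbouring hairpins on chromosome X, share the seed GCUACAU and are known from vessel walls and platelets. They went in opposite directions. miR-222-3p had 0.120 and 0.142 in serum against 0.0108, 0.0079, 0.0117 and 0.0130 in intestine, where no array detected it, so that it was at least 2.64-fold higher in serum (adjusted p = 4.77e-09). miR-221-3p had 0.0090 and 0.0131 in serum, where it was not detected, against 0.0530, 0.0536, 0.0613 and 0.0777 in intestine, at least 1.86-fold lower in serum (adjusted p = 1.52e-08). The levels of both were low. With normexp, neither passed, with differences of 0.36 for miR-222-3p and -0.38 for miR-221-3p. miR-221-3p did not pass with the scalings by control RNAs either (-0.57 and -0.39). The third tested miRNA of the endothelial list, miR-126a-3p, which lies in an intron of the endothelial gene Egfl7, was at the floor in serum and had 1.81 to 2.73 in intestine, at least 44.1-fold lower in serum. The list as a whole, of which miR-126a-5p was undetected on all 6 arrays, summed to 0.136 and 0.171 in serum against 1.89 to 2.84 in intestine.

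The miRNAs listed for the intestinal lining were all lower in serum. All 20 members of the epithelial list were tested and all 20 passed as lower, beside 59.1% of all tested miRNAs, with a median difference of -5.49 (-3.40 with bounds). They summed to 0.419 and 0.403 in serum, against 80.5 to 154 in intestine, and 18 of the 20 were detected on neither serum array. The direction of those 18 follows from detection in intestine only. In bulk RNA of the intestine, the number of cells of a type and the RNA per cell cannot be told apart. Serum miRNAs lie outside cells, so neither describes a serum value. miR-194-5p, transcribed with miR-192 or miR-215 in enterocytes, was at the floor on both serum arrays and had 26.8, 42.1, 28.9 and 54.5 in intestine, at least 550-fold lower in serum. This was the largest bound in the comparison. miR-192-5p had 0.0144 and 0.0177 in serum, not well above background, against 14.4, 20.7, 17.4 and 25.6 in intestine, at least 298-fold lower. miR-215-5p was at least 110-fold lower in serum.

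The miR-200 family, which holds cells in the epithelial state by repressing Zeb1 and Zeb2, showed the same pattern. miR-200b-3p was at the floor in serum and had 7.08, 9.85, 8.05 and 10.8 in intestine, at least 103.2-fold lower in serum. miR-200c-3p was at least 115-fold lower in serum. The exceptions, detected on both serum arrays, were 2 miRNAs outside this family. miR-375-3p, known from enteroendocrine cells and pancreatic islets, had 0.1004 and 0.191 in serum against 1.33, 1.22, 1.47 and 1.93 in intestine, a difference of -3.40 (SE 0.37, adjusted p = 1.11e-08). miR-378a-3p, which lies in the metabolic regulator gene Ppargc1b, had 0.285 and 0.152 in serum against 0.843 to 1.29 in intestine (-2.32, SE 0.40). miR-378a-3p did not pass with quantile normalization (-0.64) or the scalings by control RNAs (-0.41 and -0.23).

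The let-7 family, miR-21a-5p and the clusters miR-17/92 and miR-106b/25 were lower in serum. All 9 members of the let-7 family, which rise as cells differentiate, passed as lower, beside 59.1% of all tested miRNAs, with a median of -8.11 (-5.76 with bounds). let-7a-5p was at the floor in serum and had 6.49, 6.96, 7.52 and 9.52 in intestine, at least 111-fold lower, and let-7c-5p was at least 100-fold lower. Only let-7b-5p and let-7i-5p were detected on a serum array, on 1 of 2 each. The direction of the other members follows from detection in intestine only. miR-21a-5p, which is made in nearly every tissue and is raised in many tumours, was at least 306-fold lower in serum. The list of these 2 clusters, known for driving proliferation, had 10 miRNAs on the array. All 10 passed as lower, beside 59.1% of all tested, with a median of -5.52 (-3.04 with bounds). As 8 of them were detected on neither serum array, the direction of these 8 follows from detection in intestine only. Of the 10, miR-20b-5p comes from neither cluster but shares the seed AAAGUGC with miR-17-5p. The list leaves out the 3p arm of miR-17, which also passed as lower. miR-92a-3p and miR-25-3p, which share a seed, were the members detected on both serum arrays. miR-25-3p had 0.0976 and 0.111 in serum against 0.632 to 0.919 in intestine (-2.88, SE 0.45), and miR-92a-3p had 0.309 and 0.474 in serum against 1.14 to 1.54 in intestine (-1.72, SE 0.42). With the labelling and hybridisation controls as the scale, miR-25-3p did not pass (-0.97 and -0.78) and the sign of miR-92a-3p turned (0.18 and 0.37), as it did with quantile normalization (0.26).

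miRNAs known from muscle and connective tissue formed further lists, and their source within the bulk intestine was not tested. Of 14 miRNAs of smooth muscle and mesenchyme, 12 were tested and all 12 passed as lower in serum, beside 59.1% of all tested, with a median of -4.35 (-2.31 with bounds). Only 2 of the 12 were detected on a serum array. For the rest, the direction follows from detection in intestine only. miR-143-3p, which keeps smooth muscle contractile, was at the floor in serum and had 2.45 to 3.83 in intestine, at least 59.1-fold lower. miR-125b-5p was just measurable, with 0.0299 and 0.0282 in serum against 1.44, 1.49, 1.64 and 1.86 in intestine (-5.78, SE 0.25). miR-199a-3p, of fibroblasts, was at least 16.5-fold lower. Of 7 miRNAs of heart and skeletal muscle, miR-1a-3p was at least 2.22-fold lower, while miR-133a-3p and miR-133b-3p did not pass, with differences of -1.06 (adjusted p = 0.0536) and -0.85 (adjusted p = 0.0583). The direction of this list's median, -1.06, turned to 0.85 and 1.04 with the scalings by control RNAs and to 0.45 with quantile normalization. miR-206-3p, miR-208a-3p, miR-208b-3p and miR-499-5p were detected on none of the 6 arrays.

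Most leukocyte miRNAs tested were lower in serum. miR-142a-3p, made in all cells of the blood lineage, was at the floor in serum and had 0.974 to 1.88 in intestine, at least 20.4-fold lower. miR-150-5p, of mature lymphocytes, was at least 3.56-fold lower. Of the 7 lymphocyte and leukocyte miRNAs, 6 passed as lower, beside 59.1% of all tested. The seventh, miR-342-3p, had 0.411 and 0.539 in serum against 0.436 to 0.574 in intestine, where the groups overlapped (-0.13, SE 0.31, adjusted p = 0.689). It passed as higher in serum with both scalings by control RNAs (1.78 and 1.96), with quantile normalization (1.89) and with scaling over all miRNAs (0.65). The list's median was -2.96 (-1.35 with bounds). The 3 tested myeloid miRNAs were lower: miR-223-3p, of neutrophils, had 0.0323 and 0.0435 in serum against 0.265 to 0.574 in intestine (-3.39, SE 0.27). With the hybridisation controls as the scale, miR-223-3p did not pass (-1.30). Of the 2 that are induced in inflammation, miR-146a-5p differed by -3.97 (SE 0.30) and miR-155-5p was at least 2.55-fold lower in serum. miR-155-5p did not pass with normexp (-0.46). Only 1 of the 2 serum arrays detected miR-223-3p, and the same held for miR-146a-5p. The sizes of these 2 differences thus rest partly on values near background. miR-223-5p and miR-146b-5p were detected on none of the 6 arrays.

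The platelet list held miRNAs higher and lower in serum, in shares near those of all tested miRNAs (28.8% higher and 59.1% lower). Of its 9 members 7 were tested. In serum, 1 was higher and 5 were lower, among them miR-26a-5p at least 71.9-fold, miR-126a-3p at least 44.1-fold and miR-103-3p at least 26.0-fold. miR-320-3p was higher, with 0.281 and 0.242 in serum against 0.0293, 0.0304, 0.0273 and 0.0444 in intestine (3.02, SE 0.32, adjusted p = 8.10e-09). miR-22-3p was bright in both, at 2.45 and 2.40 in serum and 1.95, 2.54, 2.19 and 2.93 in intestine, and the groups overlapped (0.03, SE 0.61, adjusted p = 0.968). It passed as higher with quantile normalization (1.34) and with both scalings by control RNAs (1.94 and 2.12). The list's median was -3.39 and its summed level 2.78 and 2.72 in serum against 9.25 to 14.1 in intestine.

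The miR-29 family was lower in serum, and the miR-30 family held members in both directions. miR-29 members repress collagens and share the seed AGCACCA, and all 3 were lower in serum. miR-29a-3p had 0.831 and 0.573 in serum against 4.51, 3.69, 5.01 and 6.10 in intestine (-2.78, SE 0.61), and did not pass with quantile normalization (-0.67) or with the scalings by control RNAs (-0.87 and -0.69), while miR-29b-3p, at least 7.64-fold lower, was not detected in serum. In the miR-30 family, known from epithelia and heart, miR-30d-5p had 2.82 and 2.58 in serum against 0.384, 0.438, 0.421 and 0.607 in intestine, a difference of 2.57 (SE 0.35, adjusted p = 3.47e-07). miR-30a-5p had 1.85 and 1.64 in serum against 1.55 to 2.27 in intestine (-0.03, SE 0.44, adjusted p = 0.949), and it passed as higher with quantile normalization (1.67) and the scalings by control RNAs (1.88 and 2.06). miR-30c-5p, which shares the seed of miR-30a-5p, was not well above background in serum and was at least 7.85-fold lower. Of the 8 members of both families 1 was higher, 6 were lower and 1 did not pass, beside 28.8% higher and 59.1% lower over all tested, with a median of -3.68 (-2.53 with bounds).

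Several miRNAs often used as references in blood samples were weak or undetected in this serum. Of 8 on that list, miR-191-5p and miR-423-3p were detected on none of the 6 arrays. The other 6 were all lower in serum, beside 59.1% of all tested. miR-24-3p had 0.163 and 0.194 in serum against 1.82, 2.02, 2.33 and 2.93 in intestine (-3.65, SE 0.53), and did not pass with the hybridisation controls as the scale (-1.56). miR-23a-3p and miR-425-5p were detected on both serum arrays, with differences of -2.72 (SE 0.60) and -2.45 (SE 0.36), and did not pass with the scalings by control RNAs. miR-23a-3p did not pass with quantile normalization either (-0.99). miR-16-5p, miR-103-3p and miR-93-5p were detected on neither serum array, and miR-93-5p was at least 5.11-fold lower. The median of the 6 was -4.76 (-3.19 with bounds).

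miRNAs of distant organs gave little signal on any of the 6 arrays. miR-122-5p, the most abundant miRNA of liver, and miR-122-3p were detected on none of them, so the comparison had no liver value to test. The same held for miR-216a-5p, miR-216b-5p and miR-217-5p of exocrine pancreas. Of 6 neuronal miRNAs, miR-128-3p was tested, at least 1.66-fold lower in serum but not past the test with normexp (-0.32), and miR-9-5p and miR-124-3p were detected on none of the 6 arrays. At this signal over background such miRNAs were not detectable, which sets no level of zero for them.

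**Figure D3:**
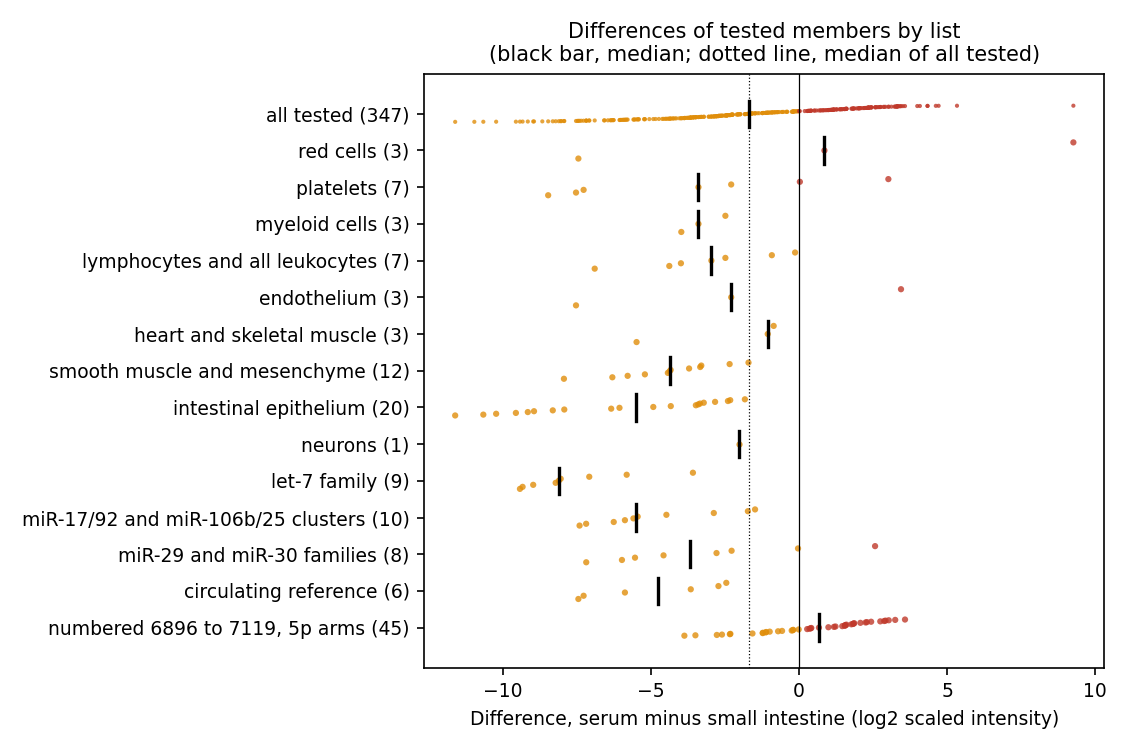
Difference of each tested miRNA, serum minus small intestine (log2 scaled intensity), for all 347 tested and for each list (number tested in brackets), red above 0 and orange below, with the median as a black bar and the median of all tested, -1.70, as a dotted line. The 20 epithelial, 9 let-7 and 12 smooth muscle members all lie below 0, while the 5p arms of miR-6896 to miR-7119 lie on both sides with a median of 0.67.

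Among miRNAs lower in serum but measured in both sample types, some of the largest differences belonged to entries that name no known tissue. miR-3963 had 1.11 and 1.17 in serum against 108, 85.7, 101 and 105 in intestine (-6.45, SE 0.41, 87.4-fold lower, adjusted p = 5.49e-13). miR-6366 had 1.49 and 2.10 in serum against 86.8, 97.9, 102 and 158 in intestine (-5.94, SE 0.79). miR-494-3p, from the imprinted Dlk1-Dio3 region, had 0.731 and 0.506 in serum against 51.7, 16.6, 26.4 and 12.0 in intestine (-5.23, SE 0.53), with a wide spread between the intestine arrays. miR-8117 was spread in the same way, at 0.201 and 0.235 in serum against 6.12, 3.77, 3.64 and 1.93 in intestine (-4.04, SE 0.38). miR-7042-5p had 0.286 and 0.264 in serum against 3.19, 2.01, 1.94 and 1.00 in intestine (-2.77, SE 0.40). For these last 3, the fourth intestine array was lowest and the first was highest. miR-8117 did not pass with the hybridisation controls as the scale (-1.94), and miR-7042-5p did not pass with either set of control RNAs (-0.86 and -0.68).

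One run of consecutively numbered hairpins contributed many of the weaker signals. Of 205 miRNAs named as 5p arms of miR-6896 to miR-7119, 45 were tested, of which 22 were higher in serum, 11 were lower and 12 did not pass, beside 28.8% higher and 59.1% lower over all tested. Their median difference was 0.67 (0.42 with bounds), beside -1.70 over all tested. Of 204 named as 3p arms, 1 was tested, miR-7022-3p, with 0.0476 and 0.0865 in serum and no detection in intestine (0.81, SE 0.34, adjusted p = 0.0292). miR-7022-3p lost its call without serum array 2, where its difference was 0.38, and without intestine array 1 or 3. miR-7045-5p was the highest of the 5p arms, with 0.821 and 0.771 in serum against 0.0540 to 0.0789 in intestine. miR-7042-5p, described above, was the lowest of those measured on all 6 arrays. miR-7002-5p, not detected in serum, was at least 2.00-fold lower there. The summed level of the 205 was 13.5 and 13.9 in serum against 10.0 to 12.6 in intestine. The median moved between 0.01 with normexp and 2.60 with the hybridisation controls as the scale, so its size is not settled.

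The difference followed base composition. The mature sequence held a median of 63.6% G and C in the 83 miRNAs called higher in serum that have a sequence, 47.7% in the 176 called lower and 63.6% in the 40 that did not pass. Of the 28 tested miRNAs with 70% or more G and C, 19 were higher in serum and 2 were lower, with a median difference of 1.54. Of the 32 with under 40%, 1 was higher and 30 were lower, with a median of -4.26. Over all tested, 28.8% were higher and 59.1% were lower. These bins include miRNAs whose direction follows from detection in 1 group only. The median G and C share was 45.5% for those detected in intestine only and 61.9% for those in serum only. Among miRNAs detected on all 6 arrays, it was 63.6% in those called higher and 54.5% in those called lower. Across the 299 miRNAs the difference correlated with the G and C share at Pearson's r = 0.60 and Spearman's rho = 0.63, and across the 99 detected on all 6 arrays at r = 0.35 and rho = 0.37. These are descriptions across miRNAs that share the same 6 arrays, and miRNAs are not independent replicates. miR-2137, miR-5131 and miR-3077-5p, printed above, hold 85.7%, 87.0% and 84.0% G and C, against 36.4% for let-7a-5p and miR-21a-5p and 45.5% for miR-194-5p. Exceptions ran both ways: miR-3473f was higher with 45.0% G and C, and miR-6366 was lower with 72.7%. The signal of the control RNAs and the slide also differed between the sample types, and their part in this pattern was not tested.

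**Figure D4:**
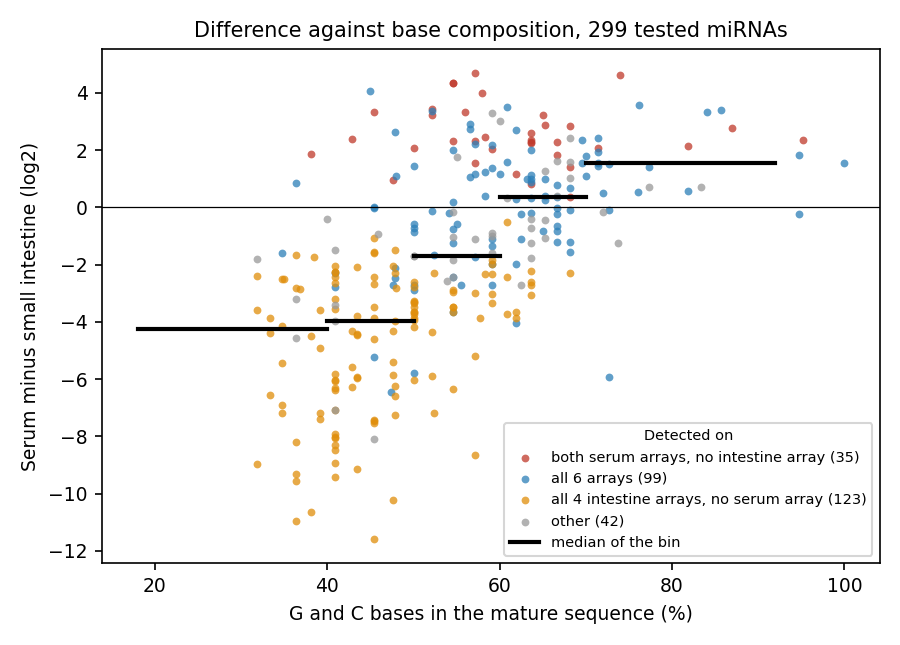
Difference, serum minus small intestine (log2), against the share of G and C bases in the mature sequence, for the 299 tested miRNAs with a RefSeq sequence, coloured by the arrays on which each was detected, with the median of each bin as a black bar. The medians run from -4.26 under 40% to 1.54 at 70% or more, and miR-486a-5p, which has no sequence in the table, is not drawn.

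miRNAs with a common seed were compared within each seed. Among the sequences matched, 28 seeds were shared by at least 2 tested miRNAs, 79 miRNAs in all. Every member was lower for 19 of these seeds, none had all members higher, and 5 held members that passed in both directions. Over the 79 miRNAs, 69 were lower and 5 higher, beside 59.1% and 28.8% of all tested. miRNAs with no matched sequence, such as miR-30d-5p, are not in this tally. Besides miR-222-3p and miR-221-3p, one of the 5 was the seed AGUGCAA, with miR-721 at least 2.30-fold higher in serum and miR-130a-3p, miR-130b-3p and miR-301a-3p lower. Another was ACUGGCC, with miR-193b-3p higher, at 0.224 and 0.135 in serum against 0.0304 to 0.0471 in intestine (2.20, SE 0.31), and miR-193a-3p at least 1.40-fold lower. With normexp, miR-721 and miR-193b-3p did not pass (0.25 and 0.43). The other seeds were GGAGAGA, of miR-882 and miR-3473a, and GGCUGGA, of miR-3473e and miR-3473b, the last with the unsettled direction given above. miR-3473a was lower, but not with the scalings by control RNAs (-0.80 and -0.61, not past the test).

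The arms of a hairpin did not always move together. Both arms were tested for 27 hairpins, of which 18 had both arms lower in serum and miR-328 had both higher. In 6 the arms passed in opposite directions, and these were picked out after their values were seen. Over all tested miRNAs, 28.8% were higher and 59.1% were lower, so unrelated pairs would also split at times. Whether arms split more or less often than unrelated pairs was not tested. let-7d-5p was at the floor in serum and had 2.55 to 3.87 in intestine, at least 41.6-fold lower, while let-7d-3p had 0.0625 and 0.0650 in serum and no detection in intestine, at least 2.05-fold higher. miR-125a, miR-139, miR-140 and miR-150 had the same direction, with the 5p arm lower and the 3p arm higher. For miR-140, which is known from cartilage and gives mostly its 3p arm there, miR-140-3p had 0.602 and 0.617 in serum against 0.237 to 0.340 in intestine (1.16, SE 0.37) and miR-140-5p was at least 4.31-fold lower. miR-125a-3p differed by 1.36 (SE 0.40) and miR-125a-5p was at least 2.26-fold lower. miR-1897 ran the other way, with the 5p arm higher by 5.33 and the 3p arm at least 2.19-fold lower. None of these 6 splits passed in both arms with normexp, whose offset shrinks differences between weak signals. There let-7d-3p turned to -0.10. The 3p arms of miR-125a, miR-139, miR-140, miR-150 and miR-1897 gave 0.20, 0.11, 0.58, 0.05 and -0.53, and none of these 6 arms passed. miR-150-3p did not pass with the brightest probe either. The 5p arm of miR-139 also turned, to 0.08 and 0.27, with the scalings by control RNAs.

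**Figure D5:**
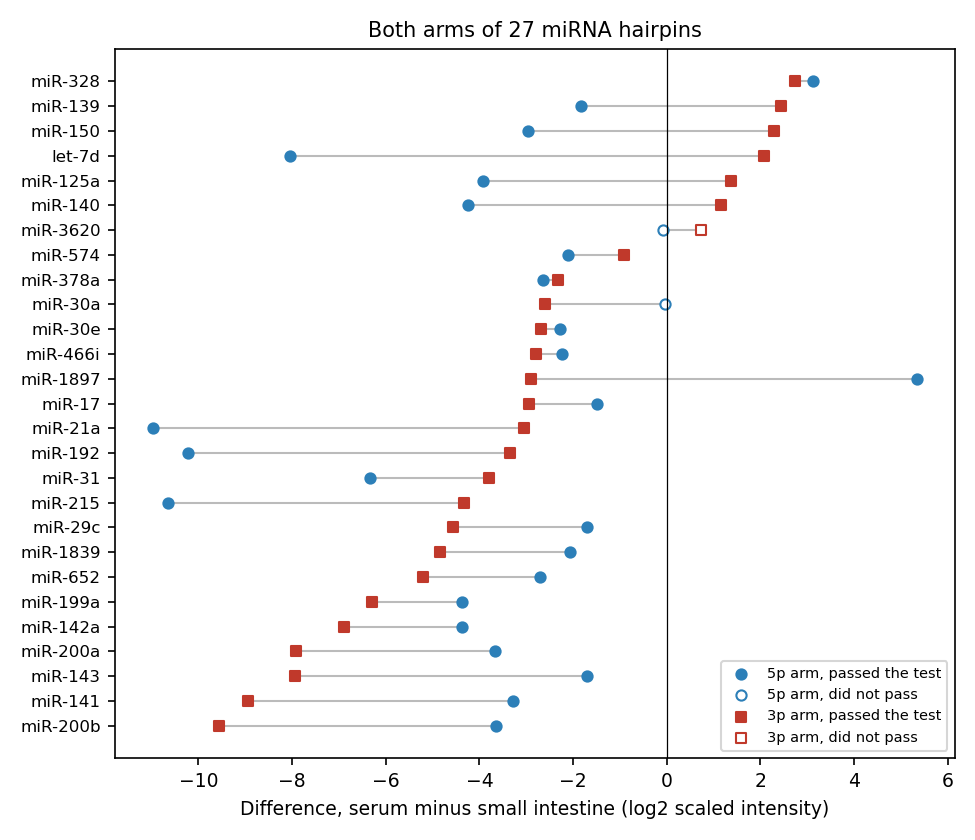
Difference of both arms of the 27 hairpins with both arms tested (log2 scaled intensity, serum minus small intestine), circles for the 5p arm and squares for the 3p arm, filled where the arm passed. The lines of let-7d, miR-125a, miR-139, miR-140, miR-150 and miR-1897 cross 0 with both ends filled.

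Probes of the same miRNA were compared as a check on single values. Of 75 tested miRNAs with more than 1 probe detected on all 6 arrays, 9 had probes that differed in sign, and none of the 56 among them that passed the test did.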

How the data were processed

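Each array is an Agilent 1-colour miRNA array of 58594 spots, of which 56430 belong to 4415 probes of 1881 mouse miRNAs. Per the submitters' processing notes the authors used Agilent Feature Extraction 11.5; per the file headers its miRNA protocol subtracts a spatially detrended background, and the deposited intensity (processed signal, linear scale) is not normalized between arrays. Deposited codes of 0 or 1 that mark a spot as saturated, outlying or clearly above its background were taken as given. The authors' deposited series value table was not used further, since none of its values was more than 1% away from the processed signal. The build named by the array design differs from that of the RefSeq table, so no coordinates are given.

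Outlier spots were dropped, spots averaged per probe and probes summed per miRNA. Each array was divided by the 75th percentile of the 81 miRNAs that all 22 arrays detected, floored and taken to log2; the floor is the median, over arrays, of the lowest scaled value among detected miRNAs. limma 3.58.1 (R 4.3.3) was fitted to all 22 arrays in 6 groups, because 2 serum arrays alone give little information on spread, and the contrast of serum and intestine at 0 Gy was tested with eBayes and Benjamini-Hochberg adjustment over 347 miRNAs. The small number of arrays limits the precision.

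The comparison, the lists and the tests were chosen with earlier results of these data known. The text names the 10 largest differences in each direction among miRNAs detected on all 6 arrays without overlap, the 8 largest bounds in each direction, up to 4 called members of each list and the tested members of the red cell, liver and reference lists. miR-320-3p, miR-22-3p, miR-342-3p, miR-30a-5p, miR-30d-5p, miR-92a-3p, miR-133a-3p, miR-133b-3p, miR-378a-3p, miR-3473b, let-7b-5p, let-7i-5p and the members of split seeds and hairpins were named after their values were seen. Alternatives covered the scaling, background correction, floor, filter, probe summary, arrays in the fit, spread, blocks and each array left out; scaling by control RNAs and Feature Extraction's total gene signal were added after seeing the data.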

Additional observations from a re-analysis of the deposited data

Results flagged for a closer look

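miR-222-3p was picked out within the intestine group on values set to the floor: the fourth array, at 0.0130, lay above the other 3, which were at the floor or within rounding of it, and its gap took up 0.992 of the group's range in log2, over Dixon's critical value for 4 samples. Without the floor and on the linear scale, a check chosen after seeing the data, the largest gap at either end took up 0.556 of the range, below that value, so the flag rests on the floor. It was detected on none of the 4 arrays. This was 1 flag among 102 measures tested, and chance flags about 1 group in 20.

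The difference between serum and intestine changed with irradiation for some miRNAs. An interaction term in the same limma fit, the difference at 10 Gy minus that at 0 Gy, passed an adjusted p of 0.05 for 51 of the 347 miRNAs (14.7%), 20 of them named in the text. Among miRNAs measured on all 6 arrays at 0 Gy and higher in serum there, the term was -1.44 for miR-1897-5p, -1.13 for miR-7045-5p, -2.01 for miR-2137 and -1.59 for miR-3077-5p. miR-451a changed by -3.82 and miR-125a-3p by -2.12, and both had the opposite sign at 10 Gy. Among those lower in serum at 0 Gy, the term was 2.76 for miR-375-3p and 1.78 for miR-378a-3p, and -1.69 for miR-125b-5p. The other terms rest on values near background in one sample type at 0 Gy, many set to the floor, so their size is not a measured change. They were -2.05 for miR-486a-5p, -1.75 for miR-3067-3p, -2.43 for miR-222-3p, -1.40 for miR-5131, -1.72 for miR-328-5p, -2.30 for miR-150-3p and -3.02 for miR-721, not detected in intestine at 0 Gy, and 2.45 for miR-150-5p, 1.84 for miR-7002-5p, 1.36 for miR-130b-3p and 1.25 for miR-142a-3p, not detected in serum at 0 Gy. On the 4 serum and 4 intestine arrays at 10 Gy, 80 of the 100 miRNAs called higher passed in the same direction, 16 did not pass and 4 passed in the opposite one, and of the 205 called lower 12 did not pass and 1 passed in the opposite direction. Those arrays lay on the same 2 slides, so slide and sample type cannot be told apart there either.

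Control probes outside the miRNA measurement also differed. The probes hur_1, hur_2, hur_4, hur_6 and mr_1, whose targets the files do not state, were dim in serum and bright in intestine. The mean intensity of hur_1 was 400.1 in serum and 22545 in intestine, that of hur_2 was 4715 in serum and 128499 in intestine, and that of hur_4 was 5.28 in serum and 6984 in intestine. For hur_6 it was 12.5 in serum and 16005 in intestine, and for mr_1 28.5 in serum and 4011 in intestine.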

How the results depend on the processing

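The 100 miRNAs higher and 205 lower in serum became 35 higher with normexp, 47 higher and 36 lower when only miRNAs detected on all 6 arrays were tested, and 1175 higher with no filter, where most of the 1881 miRNAs tested lay near the floor. Higher calls were 93 to 99 with an array left out, where a lone serum array is assumed to vary like the other groups. Whether the replicate numbers pair the samples could not be told, because the deviations of 2 serum arrays from their mean mirror each other. The correlations of same-numbered deviations were 0.03 and 0.15, and a fit with the replicate block gave 99 higher and 205 lower. No scaling gave 74 higher and scaling over all miRNAs 115. Of main calls, 4 passed with the opposite sign under quantile normalization and 1 under each scaling by control RNAs. Of 2561 values of 101 miRNAs checked singly, 2454 kept their direction and side of the threshold, 60 no longer passed, 12 newly passed and 35 reversed. With normexp, miR-7022-3p (-0.0861), let-7d-3p (-0.096) and miR-22-3p (-0.086) reversed. With quantile normalization, labelling controls and hybridisation controls, in this order, so did miR-30a-5p (1.67, 1.88, 2.06), miR-342-3p (1.89, 1.78, 1.96), miR-3473b (1.28, 1.09, 1.27), miR-92a-3p (0.26, 0.18, 0.37), miR-133b-3p (0.73, 1.05, 1.24) and miR-133a-3p (0.45, 0.85, 1.04), and with the controls alone miR-139-5p (0.083, 0.27). Scaling over miRNAs detected on all 6 arrays and over all miRNAs turned miR-30a-5p (0.29, 0.75) and miR-342-3p (0.19, 0.65). miR-22-3p, near 0, also turned with no scaling (-0.057) and the replicate block (-0.069), and miR-30a-5p with array weights (0.030). With an array left out, miR-22-3p ranged from -0.065 to 0.13, miR-30a-5p from -0.12 to 0.083 and miR-342-3p from -0.33 to 0.064. Median differences that turned were those of all tested (0.29) and of platelets (0.029) with the filter on all 6 arrays, and of heart and skeletal muscle with quantile normalization (0.45), labelling controls (0.85) and hybridisation controls (1.04). The median of the 5p arms of miR-6896 to miR-7119 was 0.99 with scaling over miRNAs detected on all 6 arrays, 1.45 over all miRNAs, 2.13 with quantile normalization, 0.0086 with normexp, 0.42 with 2 times the floor, 0.40 with the filter on all 6 arrays, 0.83 with the filter on every array of a group, 1.18 with the brightest probe, 2.58 with labelling controls, 2.60 with hybridisation controls, and 0.54 to 0.81 with an array left out. That of the 3p arms, 1 miRNA, was 1.59 over all miRNAs, 2.01 with quantile normalization, -0.0861 with normexp, 2.72 and 2.90 with labelling and hybridisation controls, and 0.38 to 1.24 with an array left out. The cause of these shifts was not tested. The number of detected miRNAs differed by -71 to -97.5 under 3 detection rules and by -119.5 to -75.5 with an array left out, each at the smallest p its design allows. Signal over background limits the serum values, where 219 and 175 miRNAs were detected.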
